A study of Mus musculus with 4 samples.

Results

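The 7 genes *Nefl*, *Nefm*, *Nefh*, *Ina*, *Prph*, *Nes* and *Vim*, which encode the intermediate filament proteins of neurons and of the neural progenitors they come from, were followed in cervical motor neurons (MNs) that carry or lack *Patz1*. Their rows were taken by gene symbol from the count files, 7 of 23420 genes in all, and all 7 passed the filter on low counts, as did 14269 genes in total. The set was proposed with fold changes of this WT and *Patz1* KO comparison in view, and its members thus count as selected on those measured values, which are given as a description, without a p value. RNA-seq had been performed in 4 libraries. The WT group was 2 libraries of MNs from E14, a line of mouse embryonic stem cells (mESCs) with the wild type genotype. The *Patz1* KO group was 2 libraries of MNs from E14 cells with the genotype *Patz1* -/-, made with CRISPR/Cas9 at the mESC stage, so that the gene was disrupted before differentiation began. PATZ1 is a zinc finger protein that binds G-rich DNA, and the study compared the groups to learn which genes depend on it in MNs. Cells of both groups were grown as embryoid bodies for 2 days and then given 1 μM all-trans retinoic acid and 0.5 μM SAG, an agonist of Smoothened, which direct them to a cervical spinal MN fate. The study made several *Patz1* KO clones, and the labels do not say which clone is behind each library. A culture of embryoid bodies also holds cells other than MNs, and in such bulk RNA fewer cells of a type and less RNA per cell cannot be told apart.

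Intermediate filaments are rope-like polymers that give the cell its mechanical strength, and in axons they set the calibre. Each subunit has a central alpha-helical rod, through which subunits pair and assemble, between a head and a tail of varying length. NEFL, NEFM and NEFH, the light, medium and heavy chains, form the neurofilaments of large axons together with alpha-internexin (INA) or peripherin (PRPH). PRPH is found mainly in neurons that send axons out of the central nervous system, spinal MNs among them. Nestin (NES) and vimentin (VIM) build the filaments of neural progenitors and are replaced as neurons mature, and VIM is also the filament protein of mesenchymal cells.

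The common ancestry of the 7 genes can be read at the end of the rod, a conserved stretch needed for assembly. The 27 coding bases of that end are shown for each gene, 5′ to 3′, from GENCODE M21 on GRCm38 (the assembly also called mm10), because they show a stretch that the whole family shares and how far its members differ there. Capitals mark the 15 bases that all 7 genes share.
*Nefl*: gCtTACAGaAaaCTctTgGAaGgcGAa
*Nefm*: gCgTACAGgAaaCTccTaGAgGggGAa
*Nefh*: gCtTACAGaAagCTccTgGAaGgcGAa
*Ina*: gCtTACAGgAagCTccTgGAaGgtGAa
*Prph*: aCcTACAGgAagCTacTgGAaGggGAg
*Nes*: aCaTACAGgActCTgcTgGAgGctGAg
*Vim*: aCcTACAGgAagCTgcTgGAaGgcGAg

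Against *Nefl*, *Nefh* was the same at 25 of the 27 bases, *Ina* at 23, *Nefm* at 21, *Vim* at 20, *Prph* at 19 and *Nes* at 16. The stretch crosses the junction of exons 2 and 3 in *Nefl*, *Nefm*, *Ina* and *Nes* and of exons 3 and 4 in *Nefh*, and lies within exon 6 in *Prph* and *Vim*. Over the whole of the main transcript of each gene, the longest run of identical bases in the 21 possible pairs went from 12 bases to 35 bases on the same strand, and was at most 14 bases on opposite strands. The longest of these, 35 bases, was between *Nefm* and *Prph*, and between *Nefl* and *Nefm* it was 17 bases. The exact runs of shared bases were thus short, and likeness over the whole length of the transcripts was not measured.

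A longer run of identical bases is found at the *Nefl*-*Nefm* locus of chromosome 14, and there it is a matter of annotation. *Nefl* (ENSMUSG00000022055, plus strand) covers chr14:68083863-68089095 in 4 exons. *Nefm* (ENSMUSG00000022054, minus strand) has 2 transcripts in GENCODE M21. The main transcript, Nefm-201, has 3 exons in chr14:68119283-68124846 and ends 30187 bases away from *Nefl*. The other, Nefm-202, runs on through a distant exon 4 (chr14:68082590-68084970), which lies across exon 1 of *Nefl* (chr14:68083863-68085009) on the opposite strand. The 2 exons share 1108 bases (chr14:68083863-68084970), which is 32.8% of the exon bases of *Nefl* and 19.2% of those of *Nefm*. Of the 1629 coding bases of *Nefl*, 1008 lie in the overlap. The coding start of *Nefl* is printed because it shows how deep the overlap goes: it falls in the 3′ UTR of Nefm-202, which holds the reverse complement of these 30 bases (chr14:68083963-68083992, plus strand, start codon in capitals).
*Nefl* start: ATGagttcgttcggctacgatccgtacttt

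RefSeq has no such *Nefm* transcript, and there the genes are 30449 bases apart. The labels name a stranded TruSeq kit for these libraries, while the methods of the study name KAPA kits for RNA-seq and no strand, so the kit is uncertain. If the reads keep their strand and were counted by it, those of *Nefl* and of Nefm-202 are told apart in the 1108 bases. If they were counted without strand on an annotation that holds Nefm-202, a read there belongs to both genes, and the usual rule of the counting program leaves it out of both. If the annotation lacks Nefm-202, as RefSeq does, the genes share no exon bases, and no read there is counted for *Nefm*. The annotation and the strand setting that were used are not given in the sources used here, and the part of shared reads in the values of *Nefl* and *Nefm* was not tested.

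*Patz1* itself was counted 1363 and 1499 times in WT, against 1154 and 714 times in *Patz1* KO, that is 92.9 ± 1.96 CPM (SD, n = 2) and 45.1 ± 3.56 CPM (n = 2). CPM stands for the count as a share of the library total after TMM scaling, times 1000000. The log2 fold change of *Patz1* was -1.04 ± 0.10 (SE). RNA of *Patz1* was thus still counted in the *Patz1* KO libraries, at a lower level in both. The labels give the genotype and not a level of this RNA. Totals per library came to 14769104 and 15728158 counts for WT, against 23881522 and 17402342 for *Patz1* KO. Over all tested genes, edgeR's quasi-likelihood test called 47.9% different between the groups at an adjusted p below 0.05, 24.1% higher and 23.8% lower in *Patz1* KO, and the libraries of the groups did not overlap for 74.2%. The median log2 fold change was -0.0014 and the median of its size was 0.34. Without WT replicate 2 the number of called genes was 4521 in place of 6836.

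Of the 7 filament genes, 6 were called, against 47.9% of all tested genes. *Nefl*, *Prph*, *Nefh* and *Ina* were higher in *Patz1* KO MNs (4 genes, 24.1% of all tested), *Nefm* and *Nes* were lower (2 genes, 23.8%), and *Vim* was not called. The same 6 genes had groups that did not overlap, against 74.2% of all tested. The largest contrast was inside the neurofilament: the light chain was 2.51 times as high in CPM in *Patz1* KO, while the medium chain was 4.86 times as high in WT.

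**Figure D1:**
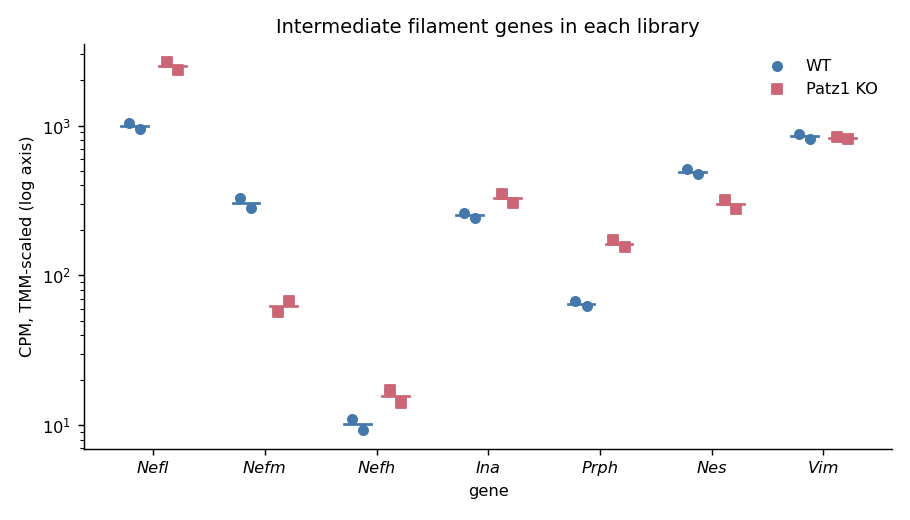
Level of each of the 7 genes in each library (CPM after TMM scaling, log axis), with WT as circles, *Patz1* KO as squares and the mean of the 2 libraries of a group as a line. The *Patz1* KO libraries lie above WT for *Nefl*, *Nefh*, *Ina* and *Prph* and below WT for *Nefm* and *Nes*, and the groups overlap for *Vim*.

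*Nefl* encodes the light chain, the subunit on which the other neurofilament chains depend to form a polymer. It was counted 15482 and 15126 times in WT, against 64027 and 39658 times in *Patz1* KO, or 1039 and 951 CPM against 2641 and 2365 CPM. Both *Patz1* KO libraries were far above both WT libraries. The log2 fold change was 1.33 ± 0.13 (SE), with a range of 1.25 to 1.41 over fits without each library in turn. *Nefl* was among the most counted genes of every library, at ranks 67 and 80 of all genes in WT and at ranks 12 and 14 in *Patz1* KO. It took 0.105% and 0.0962% of all counts in WT, and as much as 0.268% and 0.228% in *Patz1* KO.

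*Nefm* encodes the medium chain, whose long phosphorylated tail reaches out from the filament. It was counted 4887 and 4455 times in WT, against 1387 and 1138 times in *Patz1* KO, or 328 and 280 CPM against 57.2 and 67.9 CPM. Both WT libraries were above both *Patz1* KO libraries by a wide margin. The log2 fold change was -2.28 ± 0.11 (SE), from -2.40 to -2.16 without each library in turn. By size of log2 fold change *Nefm* held rank 395 among the 14269 tested genes, *Nefl* rank 1166 and *Prph* rank 1171.

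*Nefh* encodes the heavy chain, which is added last to neurofilaments as axons mature. It was the least counted of the 7, 164 and 147 times in WT against 417 and 238 times in *Patz1* KO, or 11.0 and 9.25 CPM against 17.2 and 14.2 CPM. The *Patz1* KO libraries were again above WT, by a smaller gap. The log2 fold change was 0.64 ± 0.16 (SE), from 0.49 to 0.77 without each library in turn. *Nefh* (chr11:4938754-4948064, minus strand, 4 exons) is on the same chromosome as the knocked-out gene, 1.63 Mb away from *Patz1* (chr11:3288874-3309083).

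The 3 chains thus moved apart. *Nefm* made up 23.8% and 22.6% of the summed *Nefl*, *Nefm* and *Nefh* counts in WT, but 2.11% and 2.77% in *Patz1* KO. Per kilobase of annotated exon, *Nefm* stood at 0.185 and 0.172 of the level of *Nefl* in the WT libraries and at 0.0127 and 0.0168 in the *Patz1* KO libraries. The ratio depends on which exons are counted as *Nefm*: with the lengths of the main transcripts alone it was 0.320 and 0.299 in WT and 0.0220 and 0.0291 in *Patz1* KO. On both lengths the ranges of the groups were far apart. The counts of *Nefl* and *Nefm* went in opposite directions. These values hold the reads of the 1108 shared bases in whatever way they were counted, and that part was not tested.

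*Prph* and *Ina* encode the other subunits that join the neurofilament chains. *Prph* (chr15:99055174-99058978, plus strand, 9 exons in its main transcript) was counted 1003 and 995 times in WT, against 4152 and 2590 times in *Patz1* KO, or 67.3 and 62.6 CPM against 171 and 154 CPM. Both *Patz1* KO libraries were above WT, and the log2 fold change of 1.33 ± 0.09 (SE; 1.25 to 1.41 without each library in turn) was that of *Nefl* to 2 decimals. Per kilobase of exon, *Prph* stood at 0.110, 0.111, 0.110 and 0.110 of the level of *Nefl* in the 4 libraries, WT first, so the ratio of these genes was nearly constant while both levels changed.

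*Ina* (chr19:47014698-47025327, plus strand, 3 exons) encodes alpha-internexin, the subunit that appears early in newly formed neurons of the central nervous system. It was counted 3917 and 3824 times in WT, against 8520 and 5134 times in *Patz1* KO, or 263 and 241 CPM against 351 and 306 CPM. The groups did not overlap, but the gap between the closest libraries was smaller than the difference between the *Patz1* KO libraries. The log2 fold change was 0.39 ± 0.10 (SE), from 0.29 to 0.49 without each library in turn, and without WT replicate 2 (0.33) *Ina* was no longer called. *Ina* shares 456 exon bases, 14.1% of its own, with *Nt5c2* on the opposite strand, whose log2 fold change was 0.09 (adjusted p = 0.425, quasi-likelihood test of edgeR, Benjamini-Hochberg adjusted). Per kilobase of exon, *Nefl* was 3.79 times the level of *Ina* in both WT libraries, against 7.20 and 7.40 times in the *Patz1* KO libraries.

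*Nes* and *Vim*, the progenitor filament genes, did not share a direction. *Nes* (chr3:87971078-87980451, plus strand, 4 exons) was counted 7597 and 7549 times in WT, against 7730 and 4660 times in *Patz1* KO, or 510 and 475 CPM against 319 and 278 CPM. WT was higher in both libraries, with a log2 fold change of -0.72 ± 0.10 (SE; -0.82 to -0.62 without each library in turn). *Vim* (chr2:13573927-13582826, plus strand, 9 exons) was counted 13094 and 13011 times in WT, against 20243 and 13702 times in *Patz1* KO, or 879 and 818 CPM against 835 and 817 CPM. Here the groups overlapped, and the log2 fold change was -0.04 ± 0.11 (SE), with a change of sign without WT replicate 1 (0.014). Per kilobase of exon, *Vim* was 2.33 times the level of *Nes* in both WT libraries, against 3.54 and 3.98 times in the *Patz1* KO libraries. With the lengths of the main transcripts alone it was 4.81 times in both WT libraries, against 7.32 and 8.21 times in *Patz1* KO.

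**Figure D2:**
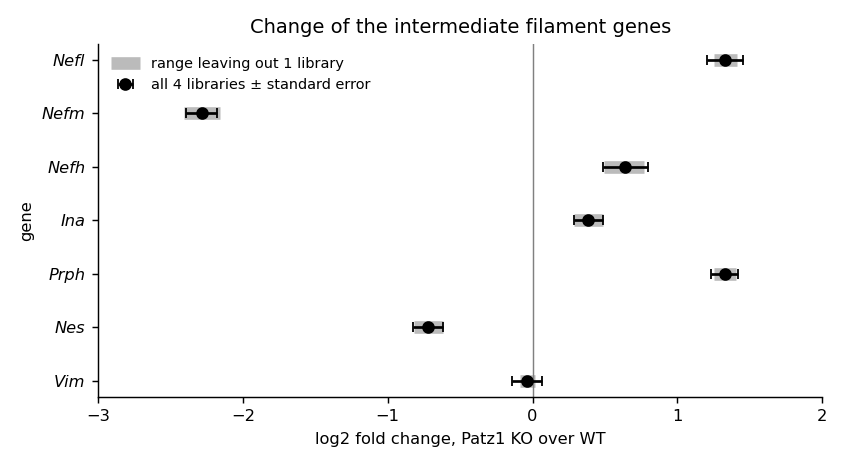
Log2 fold change of each gene, *Patz1* KO over WT, with its standard error as a black bar and the range over the 4 fits that each leave out 1 library as a grey bar. *Nefl* and *Prph* sit together at 1.33, *Nefm* lies at -2.28, and only *Vim* has a grey bar that crosses 0.

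Summed, *Nefl*, *Nefm*, *Nefh*, *Ina* and *Prph* reached 1709 and 1544 CPM in WT and 3239 and 2907 CPM in *Patz1* KO, and *Nes* and *Vim* 1389 and 1293 CPM in WT and 1154 and 1095 CPM in *Patz1* KO. All 7 genes together took 0.312% and 0.287% of each WT library, against 0.446% and 0.386% in *Patz1* KO. The composition of this filament RNA was compared within each library per kilobase of exon, as each gene's share of the summed level of the 7. *Nefl* held 41.2% ± 0.037 (SD, n = 2) of it in WT and 63.9% ± 0.574 (n = 2) in *Patz1* KO. *Vim* went from 25.0% ± 0.277 to 15.1% ± 0.809, *Nes* from 10.7% ± 0.119 to 4.01% ± 0.113 and *Nefm* from 7.34% ± 0.366 to 0.939% ± 0.177. *Prph* went up in share, from 4.54% ± 0.045 to 7.03% ± 0.028, while *Ina* went from 10.9% ± 0.016 to 8.75% ± 0.249, although its own level was higher. *Nefh* made up 0.354% ± 0.022 in WT and 0.338% ± 0.023 in *Patz1* KO. The direction of this last change depends on the length used: with the main transcripts alone *Nefh* made up 0.261% in WT and 0.284% in *Patz1* KO.

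**Figure D3:**
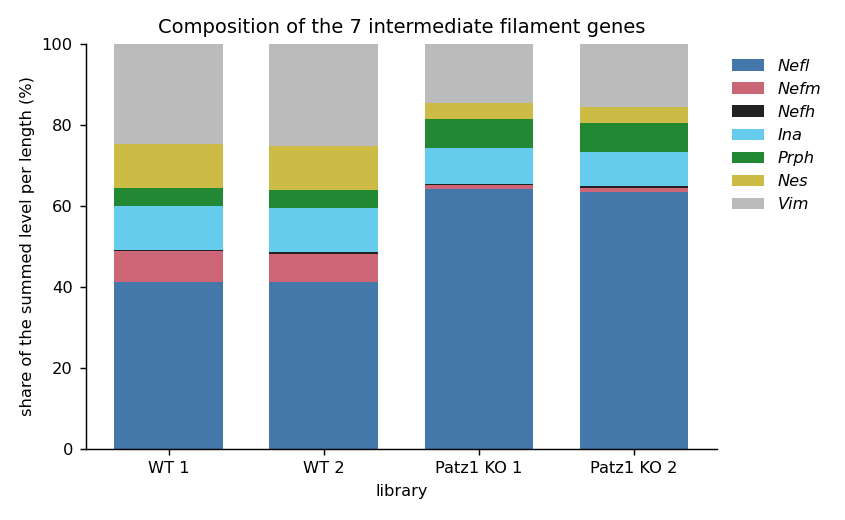
Share of each gene in the summed level per kilobase of exon of the 7 genes (percent), 1 bar per library. The share of *Nefl* was 41.2% and 41.1% in the WT libraries, against 64.3% and 63.5% in the *Patz1* KO libraries, and the share of *Nefm* shrank from 7.60% and 7.08% to 0.814% and 1.06%.

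In WT the order of levels per kilobase was *Nefl*, *Vim*, *Ina*, *Nes*, *Nefm*, *Prph* and *Nefh*, with *Ina* and *Nes* less than 1 percentage point apart in either library. In *Patz1* KO, *Prph* moved above *Nes* and *Nefm*, which gave the order *Nefl*, *Vim*, *Ina*, *Prph*, *Nes*, *Nefm* and *Nefh*. The order in WT depends on the length used. With the main transcript of each gene alone, *Vim* came first in WT with 39.9% and *Nefl* second with 30.3%. *Nefm* then held rank 3, *Nes* rank 4 and *Ina* rank 5 in WT. In *Patz1* KO *Nefl* was first with 53.5% on this length.

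The genes with the profile most like *Prph* and like *Nefm* were sought among 9793 tested genes with a mean of at least 10 CPM, by the Euclidean distance between log2 CPM values centred on their mean over the 4 libraries. The nearest to *Prph* was *Nefl* itself (distance 0.0207), and *Prph* was the nearest to *Nefl*. Next to *Prph* came *Cacna2d2* (0.0353), an auxiliary subunit of calcium channels, with a log2 fold change of 1.42, and *Dync1i1* (0.0387), the intermediate chain of dynein found in neurons, with 1.34. *Nefm* had less close neighbours: *Foxa2* (0.177), a factor of floor plate and endoderm, with a log2 fold change of -2.35, *Ifitm2* (0.187), a membrane protein of the interferon response, with -2.45, and *Col2a1* (0.219), a collagen of cartilage and notochord, with -2.31. With 4 libraries in 2 groups, this distance is set mainly by the fold change between the groups.

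The genes around each filament gene were examined within 500 kb. *Nefl* and *Nefm* are the only pair of the 7 at a shared locus, and the nearest gene on one side, *Dock5* (149 kb from *Nefm*), which encodes a guanine nucleotide exchange factor, was lower in *Patz1* KO with 14.1 ± 0.912 CPM in WT and 8.53 ± 0.162 in *Patz1* KO (n = 2 each; log2 fold change -0.72, adjusted p = 0.000757). The other tested genes of the window, *Cdca2* (-0.71, adjusted p = 3.51e-05), *Kctd9* (-0.43, adjusted p = 0.0241) and *Adam28* (-1.06, adjusted p = 0.0118), were lower too, by the quasi-likelihood test of edgeR, Benjamini-Hochberg adjusted. *Nefl* was thus the one tested gene of that window with a higher level in *Patz1* KO. The nearest gene on the other side, *Adam7*, had 0 counts in both WT libraries, against 4 and 2 in *Patz1* KO and was not tested. *Cdca2*, *Kctd9* and *Adam28* were named after their values were seen.

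At the other loci the neighbours went in both directions. Near *Nefh*, 4 of 15 tested genes were higher and 3 lower, and the nearest, *Thoc5* (9.89 kb; log2 fold change -0.17, adjusted p = 0.137) and *Ap1b1* (38.8 kb; 0.20, adjusted p = 0.0931), were not called. Near *Ina*, 1 of 14 was higher and 4 were lower, and *Pcgf6* (8.29 kb; -0.02, adjusted p = 0.909) and *Cnnm2* (135 kb; -0.21, adjusted p = 0.178) were not called. Near *Prph*, 6 of 27 were higher and 6 lower, with *Tuba1c* (17.1 kb; -0.07, adjusted p = 0.568) not called and *Troap* (15.6 kb; -0.65, adjusted p = 0.0133) lower. Near *Nes*, 3 of 26 were higher and 8 lower, with *Crabp2*, a retinoic acid binding protein (17.7 kb; -0.31, adjusted p = 0.0318), lower and *Bcan*, a proteoglycan of brain matrix (7.08 kb; 1.04, adjusted p = 0.013), higher. Near *Vim*, 2 of 4 were higher and 1 lower. *Trdmt1* (29.3 kb; 0.06, adjusted p = 0.805) was not called there, and *St8sia6* on the other side had at most 5 counts in any library. These adjusted p values are from edgeR's quasi-likelihood test. The windows together held 92 tested genes, *Nefl* and *Nefm* among them as neighbours of each other, of which 44 were called, 23 without WT replicate 1 and 26 without WT replicate 2. Apart from *Nefl* and *Nefm*, 42 of 90 tested neighbours were called (46.7%), 16 higher and 26 lower, against 47.9% of all tested genes, a share near the background.

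Genes that act with the filaments were taken in lists by function, and marker genes by cell type, with earlier results of these data known. In each list, the genes named with an adjusted p are mostly those with the smallest p. For each list, 24.1% higher and 23.8% lower over all tested genes is the background, with a median log2 fold change of -0.0014. The mRNA-binding, mesenchyme, endoderm and pluripotency lists had 0 genes higher. For these, edgeR also had 0 higher at an unadjusted p below 0.05, and DESeq2's Wald test called 0 higher. The list of peripheral and cranial neuron genes also had 0 higher, but 1 at an unadjusted p below 0.05 in edgeR. Among 14 tested genes of other intermediate filaments (of 18 listed), 3 were higher and 6 lower, with a median of -0.31. The lowest p values were those of keratins of simple epithelia: *Krt8* was counted 343 and 306 times in WT, against 45 and 35 times in *Patz1* KO (log2 fold change -3.43, adjusted p = 2.05e-10, edgeR's quasi-likelihood test), *Krt18* was at -3.46 (adjusted p = 4.87e-10) and *Krt19* at -3.93 (adjusted p = 8.36e-09). *Krt23* had no count in any library. *Gfap*, the filament gene of astrocytes, had 1 count in each WT library and 0 in each *Patz1* KO library. *Synm*, synemin, which joins VIM and NES filaments, had 18.1 ± 0.837 CPM in WT and 19.0 ± 2.75 in *Patz1* KO (n = 2 each; log2 fold change 0.06, adjusted p = 0.747 by edgeR).

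Of 7 cytolinkers, the large proteins that tie filaments to other structures, 1 was higher and 5 were lower (median -0.57). They were led by *Dsp*, desmoplakin of epithelial desmosomes (log2 fold change -3.15, adjusted p = 2.05e-12 in edgeR's quasi-likelihood test), *Dst*, dystonin (-0.57, adjusted p = 0.000276), and *Macf1*, which links actin and microtubules (-0.54, adjusted p = 0.000762). Among 18 kinases, a phosphatase subunit and other factors of filament phosphorylation and turnover, 5 were higher and 6 lower (median -0.03). The mitotic kinases *Cdk1* (log2 fold change -0.76, edgeR adjusted p = 2.15e-06) and *Plk1* (-0.84, edgeR adjusted p = 3.03e-06) were lower, and *Cdk5r2*, a neuronal activator of the kinase CDK5, was higher (0.96, edgeR adjusted p = 0.000206). Only 3 were higher without WT replicate 1, and 3 lower without WT replicate 2.

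Of 11 motors and motor subunits that carry neurofilaments along axons, 7 were higher and 1 lower (median 0.24). *Dync1i1* went from 8.75 ± 0.633 CPM in WT to 22.1 ± 1.51 in *Patz1* KO (n = 2 each; log2 fold change 1.34, edgeR adjusted p = 5.12e-07), *Dctn1*, the large subunit of dynactin, was at 0.87 (edgeR adjusted p = 1.76e-06) and *Klc1*, a kinesin light chain, at 0.71 (edgeR adjusted p = 1.07e-05). Without either WT library in turn, 4 of the 11 were higher, and none was lower without WT replicate 2. Of 6 proteins that bind neurofilament mRNAs, 0 were higher and 3 lower (median -0.28), among them *Tardbp*, which encodes TDP-43 (log2 fold change -0.64, edgeR adjusted p = 1.84e-05) and *Arhgef28* (-0.94, edgeR adjusted p = 0.000101).

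The cells of the cultures were described with marker lists. Of 21 pan-neuronal genes, 11 were higher and 2 lower (median 0.33), with a summed level of 9662 to 10043 CPM in WT and 11628 to 12208 in *Patz1* KO. *Dcx*, a microtubule protein of young neurons, was at a log2 fold change of 1.01 (edgeR adjusted p = 1.17e-06), *Syp*, synaptophysin, at 0.85 (edgeR adjusted p = 5.54e-07) and *Rbfox3*, NeuN, at 0.89 (edgeR adjusted p = 4.95e-05). Without WT replicate 2, 4 were higher, and without either WT library in turn, or under a threshold of 0.01, none was lower, and 1 was without *Patz1* KO replicate 2. Of 12 MN genes, 7 were higher and 3 lower (median 0.66, 910 to 940 CPM in WT and 1044 to 1124 in *Patz1* KO). *Chat*, which makes acetylcholine, was higher (0.99, edgeR adjusted p = 3.43e-07), and the columnar factors *Foxp1* (-1.05, edgeR adjusted p = 2.77e-08) and *Aldh1a2* (-1.21, edgeR adjusted p = 3.69e-08) were lower. No gene of either list was at 0: the lowest count in any library was 11 among the 21 pan-neuronal genes (*Thy1*, named after its values were seen) and 126 among the 12 MN genes (*Onecut1*, likewise). The summed levels of both lists, like the levels of *Nefl*, *Prph*, *Nefh* and *Ina*, were above WT in both *Patz1* KO libraries, though not all genes of either list were higher, and the part of the share of neurons in the values of the filament genes was not tested.

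The markers that go with *Nes* and *Vim* were mixed. Of 15 tested neural progenitor genes (16 listed), 8 were higher and 3 lower (median 0.47, 1166 to 1208 CPM in WT and 1433 to 1494 in *Patz1* KO), among them *Nkx6-2* (log2 fold change 2.81, edgeR adjusted p = 8.58e-11) and *Sox1* (1.03, edgeR adjusted p = 1.78e-06) higher and the Notch target *Hes5* (-0.99, edgeR adjusted p = 9.2e-07) lower. The summed level of these progenitor genes was thus higher in both *Patz1* KO libraries, where *Nes* was lower. Of 6 tested glial genes (8 listed), 4 were higher and 1 lower (median 1.45, 147 to 158 CPM in WT and 216 to 230 in *Patz1* KO), with the glutamate transporter *Slc1a3* at 1.25 (edgeR adjusted p = 9.36e-09), *Aldoc* at 1.65 (edgeR adjusted p = 6.91e-07) and the connexin *Gja1* at -3.02 (edgeR adjusted p = 2e-10). All 12 tested mesenchyme genes (13 listed) were lower (median -2.40, 371 to 403 CPM in WT and 86.3 to 93.5 in *Patz1* KO), with *Col3a1* at -3.24 (edgeR adjusted p = 1.38e-12), *Pdgfra* at -3.96 (edgeR adjusted p = 2.49e-11) and fibronectin, *Fn1*, at -1.72 (edgeR adjusted p = 1.25e-10). Of 8 tested endoderm genes (9 listed), 6 were lower and none higher (median -2.99, 44.3 to 51.7 CPM in WT and 7.30 to 8.71 in *Patz1* KO), led by *Dab2* (-3.34, edgeR adjusted p = 1.95e-09), *Foxa1* (-2.87, edgeR adjusted p = 1.68e-08) and *Gata4* (-3.49, edgeR adjusted p = 2.03e-07), and only 2 of them were lower when at least 10 counts in every library were asked for. None of the mesenchyme or endoderm markers was at 0 in every library. *Nefm* (log2 fold change -2.28), *Nes* (-0.72), *Krt8*, *Krt18* and *Krt19* were lower, like the medians of the mesenchyme and endoderm lists. So were 23.8% of all tested genes, while *Vim*, also a filament gene of mesenchymal cells, was not called (-0.04). The part of such cells in the values of the filament genes was not tested.

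PRPH is also a filament of sensory, autonomic and cranial neurons, so genes of those neurons were listed as well. Of 9 tested (10 listed), none was higher and 1 was lower (median 0.23, 57.2 to 63.9 CPM in WT and 56.9 to 64.3 in *Patz1* KO). *Dbh*, the enzyme that makes noradrenaline, was at a log2 fold change of -3.37 (edgeR adjusted p = 1.86e-06), *Runx1* at 0.43 (edgeR adjusted p = 0.057) and *Phox2a* at 0.78 (edgeR adjusted p = 0.219). The part of such neurons in the values of *Prph* was not tested. At an unadjusted p below 0.05 edgeR had 1 gene of this list higher, and DESeq2's Wald test called 0 higher. Without the filter on low counts 1 gene was called higher. When at least 10 counts in every library were asked for, 0 were lower. With either *Patz1* KO library left out in turn 1 gene was called higher, and without *Patz1* KO replicate 2 the number lower was 2. Of 3 tested pluripotency genes (6 listed), 1 was lower and none higher (median -0.70, 6.92 to 8.49 CPM in WT and 5.40 to 6.68 in *Patz1* KO). They were *Dppa5a* (-1.71, edgeR adjusted p = 0.0118), *Nanog* (-0.70, edgeR adjusted p = 0.0551) and *Zfp42* (0.46, edgeR adjusted p = 0.298), and without either WT library in turn none was called, while 2 were lower without *Patz1* KO replicate 2, under each other scaling, without the filter and with the replicate number in the fit, and 0 with DESeq2's Wald test or a threshold of 0.01.

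**Figure D4:**
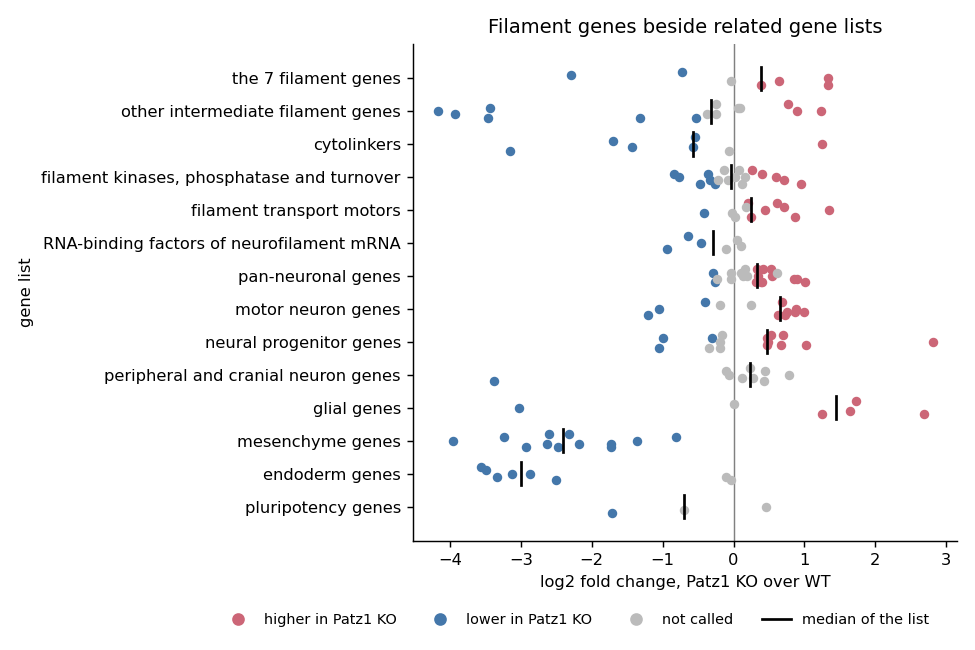
Log2 fold change, *Patz1* KO over WT, of every tested gene of each list, 1 point per gene, coloured by the call of edgeR's quasi-likelihood test, with the median of the list as a black line. The 7 filament genes spread from -2.28 to 1.33 around a median of 0.39, while all 12 mesenchyme genes lie below 0.

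The promoters were searched for G-rich motifs, since PATZ1 binds such sequences. RefSeq promoter windows of 300 bases on GRCm38.p6, from 250 bases before the start of the gene to 50 after it, were at hand for 4 of the 7 genes, *Ina*, *Prph*, *Nes* and *Vim*. The start used is the first base of the RefSeq gene in *Ina*, *Nes* and *Vim*, while that of *Prph* (99055174) lies 1595 bases inside the RefSeq gene, at the start of the gene in GENCODE M21. For *Vim* the start used is 13574311, while in GENCODE M21 its main transcript starts at 13573952. The *Vim* window (chr2:13574061-13574360) thus lies inside the span of that transcript. The motif GGGAGGG, on either strand, is held by 22.0% of 32851 windows, and GGGGNGGGG by 22.4%. *Prph* held 2 matches of GGGAGGG and 3 of GGGGNGGGG, some of which overlap each other. *Ina* held 1 match of each, *Vim* 2 of GGGAGGG and 1 of GGGGNGGGG, and *Nes* held neither. The GC content of these windows was 71.7% in *Ina*, 64.7% in *Prph*, 59.3% in *Vim* and 58.7% in *Nes*. The shares over all windows were not matched for GC content. A match to each of 3 genes is printed with 30 bases of its window on the plus strand and the motif, or its reverse complement, in capitals, to show how the G-rich stretches look in a gene that was higher by a large factor (*Prph*), in a gene that was higher by a small one (*Ina*) and in the gene that was not called (*Vim*).
*Prph* (chr15:99055045-99055074): gtggggcatcCCCCTCCCCacacagcccaa
*Ina* (chr19:47014456-47014485): gtttgggcactCCCTCCCctccggtcattc
*Vim* (chr2:13574240-13574269): aggatggcagtGGGAGGGgaccctctttcc

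These matches are a description of the sequence, and no binding of PATZ1 was measured in these libraries. The study mapped the binding of tagged PATZ1 in mESCs by chromatin immunoprecipitation and sequencing, and those data were not used here.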

How the data were processed

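RNA-seq libraries (TruSeq stranded with RiboZero Gold per the labels, KAPA kits per the study's methods) of 2 WT and 2 *Patz1* KO MN cultures were analysed, grouped by genotype label. Sample titles say ESC, but source and cell type give MNs, which was followed. The deposited values are raw counts per gene symbol: the authors mapped reads to mm10 (submitters' processing notes: TopHat2 2.1.1, Bowtie2 2.3.1, featureCounts 1.6.2, DESeq2), and the annotation and strand setting are not given in the sources used here.

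Genes passing filterByExpr (minimum count 10) were TMM-scaled and tested with edgeR's quasi-likelihood test (edgeR 4.0.16, R 4.3.3; Benjamini-Hochberg over 14269 genes, adjusted p below 0.05). Standard errors are the absolute log2 fold change over the square root of F. The code was tested on simulated data. With 2 libraries per group an exact permutation test cannot pass 0.05 and none was run. The WT libraries differed by a chi-square of 9.87 per gene and the *Patz1* KO libraries by 21.98, so none were merged. They were independent differentiations, as the study describes.

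The filament genes and the lists were chosen with earlier results of these data known. Named beside them were *Patz1*, *Gfap*, *Synm*, the 3 smallest p of each list (1 gene is not reported here), the nearest gene on either side, and the 3 profiles nearest to *Nefm* and *Prph*. *Krt23*, *Thy1*, *Onecut1* and the remaining genes of the *Nefm* window were named after their values were seen. Positions are from GENCODE M21 (93.0% of symbols matched) and RefSeq GRCm38.p6. DESeq2 1.42.0, other scalings, filters and thresholds, thinning, a replicate term and leaving out each library were alternatives.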

Additional observations from a re-analysis of the deposited data

How the results depend on the processing

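Of 98 log2 fold changes of the 7 genes under the alternatives, 93 kept their direction and their side of the threshold. Under a minimum absolute log2 fold change of 1, *Nefh*, *Ina* and *Nes* were no longer called, which left 3 of the 7 called, 718 of all genes, 27 list genes (96 otherwise) and 5 neighbours. Without WT replicate 2, *Ina* was not called, and without WT replicate 1, *Vim* changed sign (-0.039 with all libraries, and -0.084 to 0.014 without each library in turn). Leaving out each library gave 5 to 6 called filament genes, 4521 to 7816 called genes, 73 to 102 list genes and 23 to 54 neighbours. A library left alone in its group was assumed to vary like the other group. The neighbours called were 28 with DESeq2's Wald test and 26 at an adjusted p below 0.01. Over all genes, DESeq2's Wald test called 5118 and the threshold of 0.01 called 4990.

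The share of *Nefl* was 33.5% in WT and 59.6% in *Patz1* KO without a length, and 30.3% and 53.5% with the length of the main transcript, an alternative chosen after seeing the data. The replicate numbers give no pairing that the labels or methods describe (correlation of the deviations of same-numbered libraries 0.03, over 14269 genes). With the replicate number as a block, 6 filament genes, 7361 of all genes, 99 list genes and 47 neighbours were called. No scaling moved the median log2 fold change of all genes by more than 0.03. At 147 to 417 counts, *Nefh* is the least precise of the 7.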
